A study of Homo sapiens with 183 samples.

Results

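The mucins followed here were 10 genes chosen by name, MUC1, MUC2, MUC3A, MUC4, MUC5AC, MUC5B, MUC13, MUC16, MUC17 and MUC20, of 19875 genes in the expression tables. All 10 had a row in every table. Poly-A RNA had been sequenced from 183 libraries of 9 human cancer cell lines. Of the 5 pancreatic cancer lines, the study calls AsPC-1 and SUIT-2 classical and T3M-4 and BxPC-3 basal-like, and CFPAC-1 was analysed without a class. The other 4 were T84 (colorectal cancer), A375 (melanoma), H1048 (small-cell lung cancer of the tuft cell type) and RH30 (alveolar rhabdomyosarcoma). The pancreatic lines stably expressed Cas9 and were collected on day 5 after delivery of a guide RNA against KLF5, RUVBL1, RUVBL2, CDK1, RPA3 (sgRpa3 in the labels), SERPINB5 or CHD4, or of the control guide sgRosa, which cuts the ROSA26 locus. KLF5, RUVBL1, RUVBL2 and ROSA26 were each cut with a pair of guides, and the labels do not say which library carries which. AsPC-1 and T3M-4 cells carrying a lentiviral empty vector (EV), a RUVBL1 A62T cDNA or a RUVBL2 dF109 cDNA, and the 4 non-pancreatic lines in their parental form, were given CB-6644, an inhibitor of the RUVBL1/RUVBL2 ATPase, or DMSO for 24 h. Each cell line is 1 source of cells, and nothing in the labels says that replicates were separate cultures, so p-values measure the spread between these libraries only.

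Mucins are large proteins built around repeats rich in serine, threonine and proline that carry dense O-linked sugars. Secreted mucins (MUC2, MUC5AC and MUC5B) are packed into granules and form the gel of mucus. Membrane mucins (MUC1, MUC3A, MUC4, MUC13, MUC16, MUC17 and MUC20) sit on the surface of epithelial cells with a short cytoplasmic tail, and the best known of them, MUC1 and MUC16 (the CA125 antigen), are shed into blood in carcinomas. In the pancreas, ducts normally carry MUC1, whereas MUC4, MUC5AC and MUC16 appear with neoplasia. KLF5 is a zinc-finger factor of epithelia that binds GC-rich DNA, and RUVBL1 and RUVBL2 are AAA+ ATPases that form one ring and serve several chromatin and assembly complexes.

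Values are TPM, transcript abundances per length that are scaled to add up to 1000000 in each library. The depth of the libraries is not known from TPM. Between 11292 and 14024 genes reached 1 TPM per library. Differences are given on the log2(TPM + 1) scale with their standard error (SE), tested with limma within 1 line and 1 experiment. Genes averaging at least 1 TPM over that fit were tested, p-values were adjusted over all of them by the Benjamini-Hochberg method, and a gene was called when the adjusted p was under 0.05. This gave 362 tests of mucins in 61 comparisons, of which 173 were called, and a further 248 pairs of mucin and comparison lay below the filter. Over the families of comparisons below, all gene tests were called higher in 6.46% to 50.8% and lower in 3.37% to 26.3%. Many comparisons share libraries, so these tests are not independent. The repeats of mucins and the near-copies of MUC3A (MUC3B) and of MUC20 share sequence, so their TPM are uncertain.

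Checks of the labels gave the following. RUVBL1 mRNA fell in all 5 sgRUVBL1 groups (from 154.3 to 44.4 TPM in T3M-4) and RUVBL2 mRNA in all 4 sgRUVBL2 groups. SERPINB5 mRNA went from 182.3 to 71.3 TPM with sgSERPINB5, CDK1 mRNA from 130.3 to 46.6 TPM with sgCDK1 in T3M-4, and RPA3 mRNA with sgRpa3 in T3M-4 from 64.3 to 23.9 TPM in the first experiment and from 92.3 to 72.4 TPM in the second. KLF5 mRNA fell in its own knockout in CFPAC-1 alone (from 191.6 to 144.3 TPM), rose in AsPC-1, first experiment (from 119.6 to 174.7 TPM), and T3M-4, second experiment (from 332.4 to 565.3 TPM), and was not called in the other 5 comparisons, and CHD4 mRNA was not lower with sgCHD4 (66.8 TPM with sgRosa, 82.7 TPM with sgCHD4). A cut gene can still be transcribed, so these values do not decide whether the protein was lost. In CFPAC-1, CDK1 averaged 86.4 TPM in the libraries labelled sgRpa3, 200.4 TPM in those labelled sgCDK1 and 215.2 TPM with sgRosa, which goes against these labels. RPA3 there averaged 31 TPM in the libraries labelled sgRpa3, 30.3 TPM in those labelled sgCDK1 and 37.6 TPM with sgRosa. Whether these labels were exchanged cannot be told from these values, so CFPAC-1 values for both groups are given by label only. Epithelial markers were above 1 TPM for 5 of 5 genes in the pancreatic lines, T84 and H1048, and for 2 of 5 in A375 and RH30. A375 lacked PMEL, TYR and DCT at 1 TPM among its 6 melanocytic markers, and H1048 lacked TRPM5 among its 5 tuft cell markers. In 8 libraries the correlation with their own group was lower by 0.005 or more than among the others: 1 each of T3M-4 sgKLF5 (first experiment), T3M-4 EV with CB-6644, T3M-4 sgRosa (second experiment), AsPC-1 sgRUVBL2, BxPC-3 sgRUVBL2, CFPAC-1 sgRosa, SUIT-2 sgKLF5 and SUIT-2 sgRosa. Values without them are given beside the comparisons with sgRosa, DMSO or EV in which they changed a call, and for the main calls in T3M-4 and CFPAC-1. The study itself left out 1 sgRUVBL1 sample of T3M-4.

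Positions are those of hg38 (GENCODE v44). MUC1 is at chr1:155185824-155192916 (minus strand). MUC20 (chr3:195720884-195741123, plus strand) and MUC4 (chr3:195746765-195811973, minus strand) are neighbours, and MUC13 is elsewhere on the same chromosome at chr3:124905442-124953819 (minus strand). MUC3A (chr7:100949534-100968347, plus strand) and MUC17 (chr7:101020072-101058859, plus strand) are close together. The secreted mucins are MUC2 at chr11:1074875-1110511, MUC5AC at chr11:1157953-1201138 and MUC5B at chr11:1223066-1262172, close together on the plus strand. MUC16 is at chr19:8848844-9010390 (minus strand).

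MUC1 and MUC13 took opposite directions after KLF5 knockout in AsPC-1 and BxPC-3, so their promoters are shown. They are RefSeq sequences of GRCh38.p14 from just upstream of the start site, both on the minus strand and written 5′ to 3′, for MUC1 at chr1:155192917-155193165 and for MUC13 at chr3:124934752-124935001. The RefSeq start of MUC13 used here lies within the longer GENCODE gene. Capitals mark matches to GGGNGNGG, a GC-rich pattern of KLF factors, on either strand, and matches may overlap.
MUC1 promoter: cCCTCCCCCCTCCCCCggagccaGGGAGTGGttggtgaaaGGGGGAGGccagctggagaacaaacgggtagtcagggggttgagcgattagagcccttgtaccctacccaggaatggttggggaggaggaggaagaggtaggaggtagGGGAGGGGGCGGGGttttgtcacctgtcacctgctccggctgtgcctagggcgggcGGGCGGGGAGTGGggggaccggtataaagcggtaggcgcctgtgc
MUC13 promoter: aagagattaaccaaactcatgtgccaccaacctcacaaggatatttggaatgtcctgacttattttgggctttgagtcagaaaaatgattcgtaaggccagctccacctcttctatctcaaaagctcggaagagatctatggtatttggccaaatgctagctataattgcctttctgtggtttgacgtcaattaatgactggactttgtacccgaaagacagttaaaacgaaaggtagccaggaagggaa
The MUC1 window held 10 matches (7 on its own strand and 3 on the other) at a GC content of 66.0%, and the MUC13 window held 0 at 41.6%. Of 27305 RefSeq promoters of 250 bases, 52.4% held at least 1 match and 0.92% held as many as MUC1 or more, with a median of 1 match and a median GC content of 58.0%. Of the other members with a promoter in the table, MUC2 and MUC3A held 1 match and MUC4, MUC16 and MUC17 held 2. The MUC16 window, at chr19:9065752-9066001, does not adjoin the GENCODE gene given above but lies well upstream of it.

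In control libraries (56 with sgRosa or DMSO), the set of mucins averaging at least 1 TPM differed between most lines. T3M-4 and BxPC-3 shared the same set, of MUC1, MUC2, MUC4, MUC13, MUC16 and MUC20. Controls of AsPC-1 and T3M-4 pool the sgRosa libraries with the DMSO libraries of EV, A62T and dF109 cells, which widens their ranges. MUC1, on the surface of most glandular epithelia, was detected in all 9 lines. Its control mean ran from 366.9 TPM in CFPAC-1 (lowest library 167.2, highest 551.3) and 156.5 TPM in BxPC-3 through 36.9 TPM in T84, 25.1 TPM in SUIT-2, 24.6 TPM in AsPC-1 and 23.0 TPM in T3M-4 to 6.81 TPM in H1048, 4.73 TPM in A375 and 1.12 TPM in RH30. Of neighbours in this order, only A375 and RH30 did not overlap. In BxPC-3 the 2 control groups differed widely, with a mean of 34.2 TPM in the first experiment and 217.7 TPM in the second.

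MUC13, a membrane mucin of the intestine, was highest in T84 (425.9 TPM, 4 libraries from 379 to 464 TPM) and in AsPC-1 (141.8 TPM over 17 libraries, with group means from 37.7 to 282.8 TPM). Means of 30.9 TPM in T3M-4, 16.0 TPM in BxPC-3 and 6.14 TPM in H1048 followed, then 2.21 TPM in CFPAC-1 and 0.79 TPM in SUIT-2. T84 lay above every AsPC-1 control, and AsPC-1 and T3M-4 overlapped. MUC20 was highest in T3M-4 (100.9 TPM, from 17.5 to 174.2 TPM) and T84 (85.4 TPM), which overlapped, and lower in BxPC-3 (24.2 TPM), CFPAC-1 (12.1 TPM), H1048 (9.76 TPM), SUIT-2 (3.50 TPM) and AsPC-1 (1.95 TPM).

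Other mucins were held by fewer lines. MUC17, a mucin of the intestinal brush border, averaged 48.6 TPM in AsPC-1 (from 23.1 to 118.6 TPM over 17 libraries) and was near 0 in the other 8 lines. The highest AsPC-1 sgRosa library held 57.5 TPM, and the DMSO libraries held 78.5, 117.7 and 118.6 TPM. MUC5AC, the main gel mucin of gastric and airway surfaces, averaged 95.8 TPM in CFPAC-1 (27.8 to 157.3 TPM) and 3.44 TPM in SUIT-2, with no overlap. MUC4 averaged 89.7 TPM in BxPC-3 (37.7 to 139 TPM), above all control libraries of CFPAC-1 (16.8 TPM on average) and, but for 1 library at 41.2 TPM, of T3M-4 (15.0 TPM). MUC16 was found in T3M-4 (17.7 TPM), CFPAC-1 (10.9 TPM) and BxPC-3 (5.11 TPM), and neighbours in this order overlapped.

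The remaining 3 members were low. MUC3A averaged 8.85 TPM in T84, 4.86 TPM in AsPC-1 and 0.71 TPM in T3M-4. MUC2, the gel mucin of the colon, averaged 4.27 TPM in T3M-4 and 3.12 TPM in BxPC-3, and only 1.21 TPM in the colorectal line T84. MUC5B was highest outside the epithelial lines, at 6.56 TPM in A375 (6.32 to 6.96 TPM), above every control library of AsPC-1 (1.03 TPM) and SUIT-2 (0.96 TPM). Levels in different lines come mostly from tables made separately, so line and table cannot be told apart in this order, and no test was run across them.

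**Figure D1:**
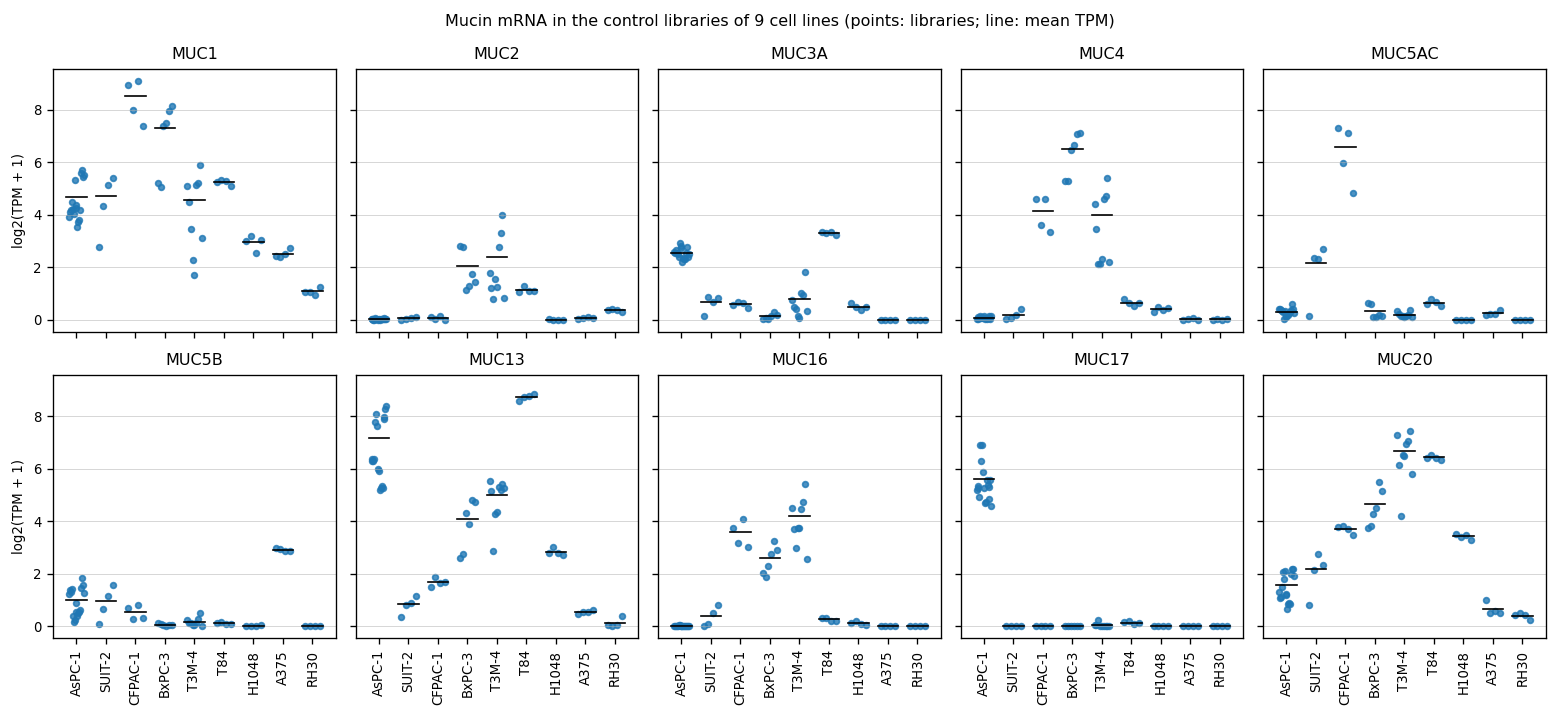
Level of each of the 10 mucins, as log2(TPM + 1), in the 56 control libraries by cell line, with a point per library and a line at the log2 of the mean TPM plus 1. MUC17 stands above 0 in AsPC-1 alone, MUC5AC is highest in CFPAC-1, MUC4 in BxPC-3, and MUC1 is present in all 9 lines.

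KLF5 knockout was compared with sgRosa in 8 comparisons of 5 pancreatic lines, to ask which genes depend on this factor. Mucins changed in both directions: of 46 mucin tests, 10 were higher and 15 lower, where 11.8% and 8.81% of all gene tests in these comparisons were called higher and lower. MUC13 was higher in 5 of its 7 tests and lower in none, MUC1 was lower in 5 of 8 and higher in none, and MUC4 was lower in 3 of 5.

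MUC13 rose most in AsPC-1. In the first experiment the 2 sgRosa libraries held 60.1 and 62.8 TPM, and the 6 sgKLF5 libraries ranged from 473.2 TPM to 545.7 TPM with a median of 494.7 TPM. The groups were far apart, with a difference of 3.01 ± 0.07 (SE, log2, adjusted p = 1.7e-09), in a comparison where 25.9% of all genes were called. In the third AsPC-1 experiment sgRosa libraries held 239, 248, 307 and 336 TPM and sgKLF5 libraries 771, 818, 863 and 913 TPM. Here too every knockout library was above every control, by 1.58 ± 0.09 (log2, adjusted p = 3.5e-10; 27.8% of genes called). In T3M-4, second experiment, MUC13 was 35.2, 37.4, 38.2 and 42.4 TPM with sgRosa against 88.3, 100.2, 102 and 109.9 TPM with sgKLF5 (1.36 ± 0.09, adjusted p = 2.1e-09; 34.6% of genes called). The groups did not overlap there either.

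In BxPC-3 the rise of MUC13 was smaller. The first experiment gave 5.03 and 5.70 TPM with sgRosa against 9.15, 11.2, 11.8 and 12.3 TPM with sgKLF5 (0.92 ± 0.16, adjusted p = 0.0032; 16.2% of genes called). In the second, sgRosa at 14, 18.8, 25.5 and 26.9 TPM overlapped sgKLF5 at 24.6, 30.4, 32.5 and 32.7 TPM (0.51 ± 0.15, adjusted p = 0.015; 34.6% of genes called). MUC13 did not pass the test in 2 comparisons. T3M-4, first experiment, had 18.7 and 19.6 TPM against 26.7, 42.7, 51.7 and 52.8 TPM (1.1 ± 0.29, adjusted p = 0.072), where only 5.72% of genes were called. Without the knockout library at 26.7 TPM, which stood apart, the difference was 1.31 with an adjusted p of 0.000146. In a check on simulated data of this T3M-4 experiment, changes of 1 (log2) planted in 200 genes were recovered for 0%. The real data of this experiment gave 723 calls, MUC20 at 1.03 among them, so the 0% does not carry over to them. In CFPAC-1, where MUC13 is low, the difference was -0.19 (adjusted p = 0.43).

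MUC1 fell with KLF5 knockout in AsPC-1, BxPC-3 and CFPAC-1. In AsPC-1 it went from 17.9 and 19.6 TPM to a range of 7.95 TPM to 11.9 TPM (median 9.14 TPM, 6 libraries) in the first experiment (-0.92 ± 0.14, adjusted p = 0.0007). In the third it went from 42.3, 44.9, 47.0 and 51.1 TPM to 3.58, 5.41, 17.8 and 25.8 TPM (-2.10 ± 0.44, adjusted p = 0.0012). Neither pair of groups overlapped, and the 4 knockout libraries of the third experiment spread over a wide range.

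In BxPC-3 MUC1 was 32.6 and 35.8 TPM with sgRosa and 14.9, 15.2, 17.5 and 20.1 TPM with sgKLF5 in the first experiment (-0.98 ± 0.15, adjusted p = 0.0013). The second gave 164, 179, 248 and 279 TPM against 48.1, 54.0, 70.1 and 76.5 TPM (-1.78 ± 0.55, adjusted p = 0.018). In CFPAC-1 the 4 control libraries at 167, 254, 494 and 551 TPM all lay above the 3 knockout libraries at 56.1, 109.7 and 111 TPM (-1.89 ± 0.43, adjusted p = 0.01; 16.2% of genes called). In these lines control and knockout libraries did not overlap.

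T3M-4 and SUIT-2 gave no call for MUC1. In T3M-4 the difference was 0.68 ± 0.40 in the first experiment (adjusted p = 0.29) and 0.03 ± 0.37 in the second (adjusted p = 0.96). In the second, sgRosa libraries held 7.74, 34.0, 35.8 and 58.2 TPM and sgKLF5 libraries 22.2, 29.2, 29.7 and 32.3 TPM, and without the control library at 7.74 TPM, which stood apart, the difference was -0.54 with an adjusted p of 0.0228. SUIT-2 held 5.79, 19.4, 34.0 and 41.1 TPM with sgRosa and 1.66, 15.8, 17.1 and 18.0 TPM with sgKLF5 (-0.93 ± 0.74, adjusted p = 0.58; 3.94% of genes called). The SUIT-2 groups overlapped, and the lowest library of each lay far below the rest. In the check on simulated data, changes of 1 (log2) planted in 200 genes were recovered for 0% in T3M-4, first experiment, and 36% in SUIT-2. The real fits called 723 and 496 genes.

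MUC4, a membrane mucin that binds ERBB2, fell in BxPC-3 and CFPAC-1. In BxPC-3 it was 37.7 and 38.2 TPM against 10.7, 11, 12.8 and 13.5 TPM in the first experiment (-1.59 ± 0.22, adjusted p = 0.00075) and 87.4, 99.5, 136 and 139 TPM against 29.7, 39.9, 43.8 and 46.9 TPM in the second (-1.50 ± 0.50, adjusted p = 0.027). In CFPAC-1 it was 9.29, 11.3, 23.1 and 23.5 TPM against 2.78, 4.95 and 6.20 TPM (-1.60 ± 0.33, adjusted p = 0.0062). None of these groups overlapped, and in T3M-4, where it did not pass the test, MUC4 differed by 0.23 and 0.66 (adjusted p = 0.79 and 0.24).

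Among secreted mucins, MUC5AC in CFPAC-1 had the largest fall after KLF5 knockout. Its control libraries held 27.8, 61.7, 136 and 157 TPM and its knockout libraries 9.88, 13.4 and 14.7 TPM (-2.55 ± 0.44, adjusted p = 0.004). In SUIT-2 MUC5AC was 0.112, 4.02, 4.09 and 5.52 TPM with sgRosa and 0.014, 0.431, 0.856 and 0.936 TPM with sgKLF5 (-1.29 ± 0.51, adjusted p = 0.25). Without the 2 SUIT-2 libraries that stood apart that difference was -1.96 (adjusted p = 0.00371). MUC5B fell in the third AsPC-1 experiment from 1.41, 1.72, 1.99 and 2.54 TPM to 0.037, 0.145, 0.326 and 0.608 TPM (-1.19 ± 0.18, adjusted p = 4.6e-05). MUC2 fell in the first BxPC-3 experiment from 5.89 and 6.09 TPM to between 0.942 and 2.21 TPM (-1.44 ± 0.21, adjusted p = 0.001) and differed by -0.20 in the second (adjusted p = 0.63). In T3M-4, second experiment, MUC2 gave -0.70 (adjusted p = 0.256), and -1.34 (adjusted p = 0.001956) without the sgRosa library that stood apart.

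MUC16 and MUC20 moved in both directions. MUC16 fell in CFPAC-1 from 7.21, 8.10, 12.4 and 16.1 TPM to 2.53, 3.70 and 4.09 TPM (-1.38 ± 0.20, adjusted p = 0.0026). It rose in T3M-4, second experiment, from 4.94, 21.1, 25.4 and 42.1 TPM to 38.5, 42.9, 46.6 and 48.1 TPM (1.19 ± 0.40, adjusted p = 0.027), where the highest control overlapped the knockouts. Without the sgRosa library at 4.94 TPM, which stood apart, that rise was 0.62 (adjusted p = 0.03819). MUC20 rose in the first BxPC-3 experiment from 12.5 and 13.2 TPM to between 23.6 and 29.9 TPM (0.98 ± 0.13, adjusted p = 0.00069). It fell in the second, where 18.5, 21.5, 34.5 and 44.7 TPM with sgRosa overlapped 14.5, 15.6, 17.2 and 18.9 TPM with sgKLF5 (-0.73 ± 0.27, adjusted p = 0.044). It also fell in CFPAC-1 (-0.66 ± 0.17, adjusted p = 0.016).

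In T3M-4 MUC20 rose from 88.9 and 91.0 TPM to 170.2, 175, 195 and 200 TPM in the first experiment (1.03 ± 0.24, adjusted p = 0.048) and by 0.70 ± 0.24 in the second (adjusted p = 0.03). The second value was 0.36 (adjusted p = 0.0536) without the sgRosa library that stood apart. MUC3A rose in T3M-4, second experiment, from 0.248, 0.945, 1.05 and 2.56 TPM to 5.04, 5.37, 6.39 and 8.73 TPM (1.82 ± 0.27, adjusted p = 4.2e-05). MUC17, tested in AsPC-1 only, fell in the third experiment from 23.1, 28.2, 38.5 and 46.2 TPM to 7.10, 11, 13.1 and 18.0 TPM (-1.41 ± 0.27, adjusted p = 0.00048) and gave -0.78 in the first (adjusted p = 0.11).

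Some KLF5 calls did not hold when 1 library was left out, with values that stayed on the same side. MUC1 gave -1.57 in CFPAC-1 without sgKLF5 replicate 2 (adjusted p = 0.05527) and -1.65 in BxPC-3, second experiment, without sgRosa replicate 4 (adjusted p = 0.05327). MUC13 in BxPC-3 gave 0.84 without sgRosa replicate 1 of the first experiment (adjusted p = 0.0582) and 0.34 without sgRosa replicate 2 of the second (adjusted p = 0.05278). MUC4 in the second BxPC-3 experiment lost its call without any of 4 libraries (adjusted p up to 0.07451), MUC16 in T3M-4 without any of 3 (up to 0.06169) and MUC20 in CFPAC-1 without any of 3 (up to 0.08538). MUC20 in T3M-4 lost it without any of 5 libraries in the first experiment (up to 0.3726) and of 4 in the second (up to 0.07143), and in the second BxPC-3 experiment without any of 6 (up to 0.1679). The MUC13 calls in AsPC-1 and T3M-4 and the MUC1 calls in AsPC-1 held without any single library.

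**Figure D2:**
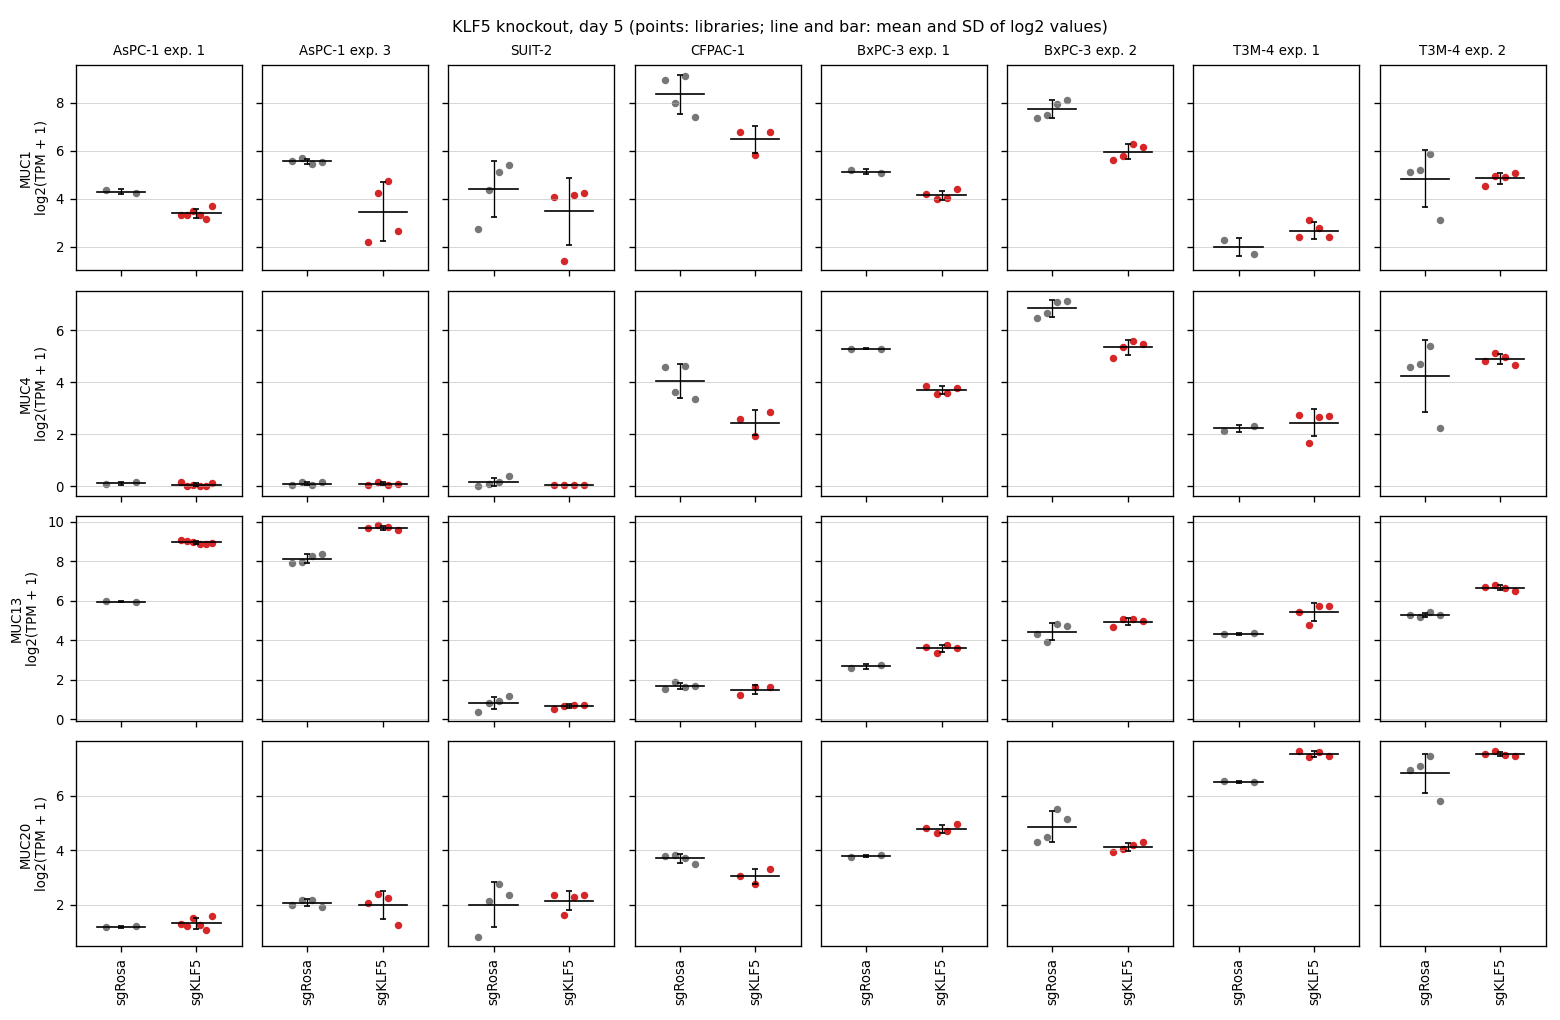
MUC1, MUC4, MUC13 and MUC20 in sgRosa (grey) and sgKLF5 (red) libraries of each line and experiment, as log2(TPM + 1) with a point per library, a line at the mean of log2 values and bars of 1 SD. MUC13 points of sgKLF5 lie above sgRosa in AsPC-1, where the first experiment runs from 60.1 and 62.8 TPM to a median of 494.7 TPM, and MUC1 points lie below sgRosa in AsPC-1, CFPAC-1 and BxPC-3.

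The same knockout repeated in a line did not give the same size for every mucin. The difference between the KLF5 effects of the first and the third AsPC-1 experiment was 1.43 for MUC13 (limma interaction, adjusted p = 1.53e-07) and 1.01 for MUC5B (adjusted p = 0.01993), where 4.28% of genes were called. For MUC1 it was 1.18 ± 0.58 and was not called (adjusted p = 0.36). Between the 2 BxPC-3 experiments it was -1.24 for MUC2 (adjusted p = 0.04372) and 1.72 for MUC20 (adjusted p = 0.003011), where 16.7% of genes were called. Between the 2 T3M-4 experiments 17.4% of genes were called and no mucin was. Lists of classical and basal-like pancreatic markers moved with KLF5 knockout too. Of 32 tests of 6 classical markers 2 were higher and 17 lower, and of 37 tests of 6 basal-like markers 0 were higher and 23 lower, and their part in the mucin values was not tested.

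RUVBL1 or RUVBL2 knockout was compared with sgRosa in 9 comparisons of 4 lines. Of 57 mucin tests 27 were higher and 13 lower, with 23.0% and 15.7% of all gene tests called in those directions. Much of the rise came from T3M-4, where all 8 tested mucins rose with either guide target. There 45.9% and 39.3% of all genes were called higher with sgRUVBL1 and sgRUVBL2. In AsPC-1 sgRUVBL1 gave 2 higher and 1 lower of 5, then 2 and 2 of 6, and sgRUVBL2 gave 3 and 2 of 6. Each knockout gave 1 higher and 0 lower of 6 in BxPC-3 and 1 and 4 of 6 in CFPAC-1. In CFPAC-1 MUC1, MUC4, MUC5AC and MUC16 fell with both. MUC13 was higher in 8 of its 9 tests, MUC20 in 5 of 9, and neither was lower in any. KLF5 mRNA moved as well, from 116.9 to 71.8 TPM and from 155.7 to 108.2 TPM with sgRUVBL1 in the AsPC-1 experiments, from 191.6 to 129.7 TPM in CFPAC-1 and from 332.4 to 437.3 TPM in T3M-4, and its part in the mucin values was not tested. Of the marker lists, epithelial genes were higher in 2 and lower in 18 of 45 tests, basal-like genes in 1 and 20 of 37, classical genes in 8 and 8 of 38, blood cell genes in 12 and 2 of 24 and endothelial genes in 6 and 0 of 12, and their part was not tested either.

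In T3M-4 sgRosa libraries of the second experiment held MUC1 at 7.74, 34.0, 35.8 and 58.2 TPM, the 3 sgRUVBL1 libraries at 124 TPM each, and the 4 sgRUVBL2 libraries at 86.8, 123, 128 and 143 TPM. Both knockouts lay above all controls, by 2.13 ± 0.40 (adjusted p = 0.00024) and 2.06. In these 2 comparisons 60.5% and 54.5% of genes were called, and the median difference of all genes tested was 0.25 and 0.19. The median of the 8 mucins was 2.15 for sgRUVBL1 and 1.81 for sgRUVBL2.

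MUC4 in T3M-4 was 3.67, 23.2, 25.3 and 41.2 TPM with sgRosa, 100.1, 100.3 and 118 TPM with sgRUVBL1 and 75.9, 92.7, 104 and 121 TPM with sgRUVBL2. Its differences were 2.50 ± 0.46 (adjusted p = 0.0002) and 2.38. MUC20 was 55.1, 123, 133 and 174 TPM with sgRosa against 412, 412 and 484 TPM with sgRUVBL1 (1.95 ± 0.26, adjusted p = 6.9e-06) and 419, 438, 448 and 645 TPM with sgRUVBL2 (2.09 ± 0.24, adjusted p = 1.4e-06). For both genes no knockout library came down to the controls.

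MUC13 in T3M-4, whose 4 controls lay within 35.2 to 42.4 TPM, was 161, 174 and 198 TPM with sgRUVBL1 (2.18 ± 0.10, adjusted p = 6.7e-11) and 143, 149.6, 167 and 184 TPM with sgRUVBL2 (2.04 ± 0.09, adjusted p = 5.3e-11). MUC2 was 0.776, 5.83, 8.94 and 15.0 TPM with sgRosa, 34.1, 34.8 and 36.7 TPM with sgRUVBL1 (2.45, adjusted p = 0.00054) and 7.13, 17.2, 17.2 and 27.0 TPM with sgRUVBL2 (1.32, adjusted p = 0.024). The sgRUVBL2 groups of MUC2 overlapped the controls, and without the control library that stood apart the difference was 0.69 (adjusted p = 0.0638). MUC16 rose by 1.85 ± 0.43 with sgRUVBL1 (adjusted p = 0.0014) and by 1.3 with sgRUVBL2 (adjusted p = 0.01), which came to 1.27 and 0.72 without that control library (adjusted p = 0.0001763 and 0.009997). MUC3A rose by 2.17 and 1.57 and MUC5B by 1.23 and 0.92. Without the same library the rises with sgRUVBL1 and sgRUVBL2 were 1.56 and 1.49 for MUC1, 1.83 and 1.71 for MUC4, 2.17 and 2.03 for MUC13 and 1.61 and 1.75 for MUC20, and all of these were still called.

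In CFPAC-1 MUC5AC fell furthest. Its 4 sgRosa libraries at 27.8, 61.7, 136 and 157 TPM lay above 5.62, 7.47, 10.3 and 15.7 TPM with sgRUVBL1 (-2.96 ± 0.41, adjusted p = 8.8e-05; 43.8% of genes called) and 6.72 and 10.8 TPM with sgRUVBL2 (-3.05 ± 0.50, adjusted p = 0.0033; 12.1% of genes called). MUC16 fell from 7.21, 8.10, 12.4 and 16.1 TPM to between 3.22 and 3.61 TPM with sgRUVBL1 (-1.38 ± 0.19, adjusted p = 8.1e-05) and to 3.77 and 3.85 TPM with sgRUVBL2 (-1.25 ± 0.23, adjusted p = 0.0048). The groups of these genes did not overlap.

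MUC1 in CFPAC-1 was 58.4, 60.8, 178 and 186 TPM with sgRUVBL1 (-1.65 ± 0.40, adjusted p = 0.0036), where its lowest control at 167 TPM overlapped, and 64.7 and 73.8 TPM with sgRUVBL2 (-2.23 ± 0.49, adjusted p = 0.0089). MUC4 gave -1.07 ± 0.30 and -1.44 ± 0.37 (adjusted p = 0.0094 and 0.019). MUC13, low in this line, was the mucin that rose, from between 1.83 and 2.67 TPM to between 2.77 and 4.48 TPM with sgRUVBL1 (0.48 ± 0.15, adjusted p = 0.014) and to 3.80 and 4.46 TPM with sgRUVBL2 (0.68 ± 0.18, adjusted p = 0.021). MUC20 gave -0.26 and 0.07 and did not pass. Without the CFPAC-1 sgRosa library that stood apart the calls of both knockouts were kept, with MUC5AC at -3.08 and -3.16 and MUC1 at -1.77 and -2.35, and so were those of KLF5 knockout, with MUC5AC at -2.67 and MUC1 at -2.01.

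In AsPC-1 MUC1 and MUC20 went apart. In the second experiment MUC1 fell from 10.8, 12.2, 13 and 17.2 TPM to 5.01, 5.05, 5.35 and 6.96 TPM with sgRUVBL1 (-1.11 ± 0.15, adjusted p = 1.7e-05), while MUC20 rose from between 0.599 and 0.875 TPM to 3.53, 3.90, 4.27 and 4.31 TPM (1.49 ± 0.11, adjusted p = 4.1e-08). In that comparison 55.8% of genes were called. In the third experiment MUC1 fell from between 42.3 and 51.1 TPM to 12.6, 14.5, 17.6 and 19.3 TPM (-1.49 ± 0.44, adjusted p = 0.0083), and MUC20 rose from between 2.83 and 3.59 TPM to 7.96, 9.91, 13.8 and 14.3 TPM (1.53 ± 0.22, adjusted p = 1.8e-05; 51.9% of genes called).

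With sgRUVBL2 in AsPC-1, MUC1 was 6.14, 22.4, 23.0 and 26.3 TPM (-1.38 ± 0.44, adjusted p = 0.017; 43.2% of genes called), which came to -0.93 with an adjusted p of 0.062 without the library at 6.14 TPM that stood apart. MUC20 rose by 0.77 ± 0.22 (adjusted p = 0.009). MUC5B fell by 0.83 on the log2 scale with sgRUVBL1 (adjusted p = 0.00088) and by 0.77 with sgRUVBL2 (adjusted p = 0.0023). MUC17 rose from between 23.1 and 46.2 TPM to 30.4, 66.8, 71.3 and 76.4 TPM with sgRUVBL1 (0.79 ± 0.27, adjusted p = 0.019) and to 75.9, 79.5, 80.5 and 89.6 TPM with sgRUVBL2 (1.28 ± 0.27, adjusted p = 0.00096). The sgRUVBL1 call for MUC17 in this experiment was lost when any of 5 single libraries was left out, and the second experiment gave -0.12 (adjusted p = 0.73).

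MUC13 in AsPC-1 rose from 36.0, 37.3, 37.5 and 39.9 TPM to 65.6, 68.2, 72.8 and 73.7 TPM in the second experiment (0.88 ± 0.07, adjusted p = 7.2e-08). In the third, where its controls stood between 239 and 336 TPM, the difference was 0.05 ± 0.09 with sgRUVBL1 (adjusted p = 0.68) and 0.24 ± 0.09 with sgRUVBL2 (adjusted p = 0.042). The RUVBL1 effects of the 2 experiments differed by 0.83 (limma interaction, adjusted p = 4.694e-05), where 18.2% of genes were called. In BxPC-3 MUC13 was the mucin called, from 14, 18.8, 25.5 and 26.9 TPM to 43.0, 51.0, 53.5 and 53.9 TPM with sgRUVBL1 (1.24 ± 0.15, adjusted p = 7.7e-05; 16.0% of genes called) and to 46.1, 46.5 and 56.9 TPM with sgRUVBL2 (1.22 ± 0.17, adjusted p = 0.00071; 9.76% of genes called). MUC1 in BxPC-3 gave -0.03 (adjusted p = 0.98) and -1.08 ± 0.59 (adjusted p = 0.25). In the second of these 1 library that stood apart held 16.3 TPM and the other 2 held 230.1 and 256 TPM. Without that library MUC1 gave 0.19 (adjusted p = 0.64) and MUC13 1.28 with sgRUVBL2, and with sgRUVBL1 MUC2 was called too (0.69, adjusted p = 0.02821).

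With sgRUVBL1 the calls named for T3M-4, CFPAC-1 and BxPC-3 held without any single library. With sgRUVBL2, of which CFPAC-1 has 2 libraries, several did not. There MUC1, MUC4, MUC5AC, MUC13 and MUC16 lost their calls without sgRUVBL2 replicate 1, MUC5AC at -2.74 (adjusted p = 0.0575) and MUC16 at -1.23 (adjusted p = 0.06472), and MUC1, MUC4 and MUC13 also without replicate 2. The 1 library left was assumed to vary like the other groups, which then supply the spread. MUC13 in the third AsPC-1 experiment lost its sgRUVBL2 call without any of 4 libraries (adjusted p up to 0.1642), as did MUC2 in T3M-4 (up to 0.08386).

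**Figure D3:**
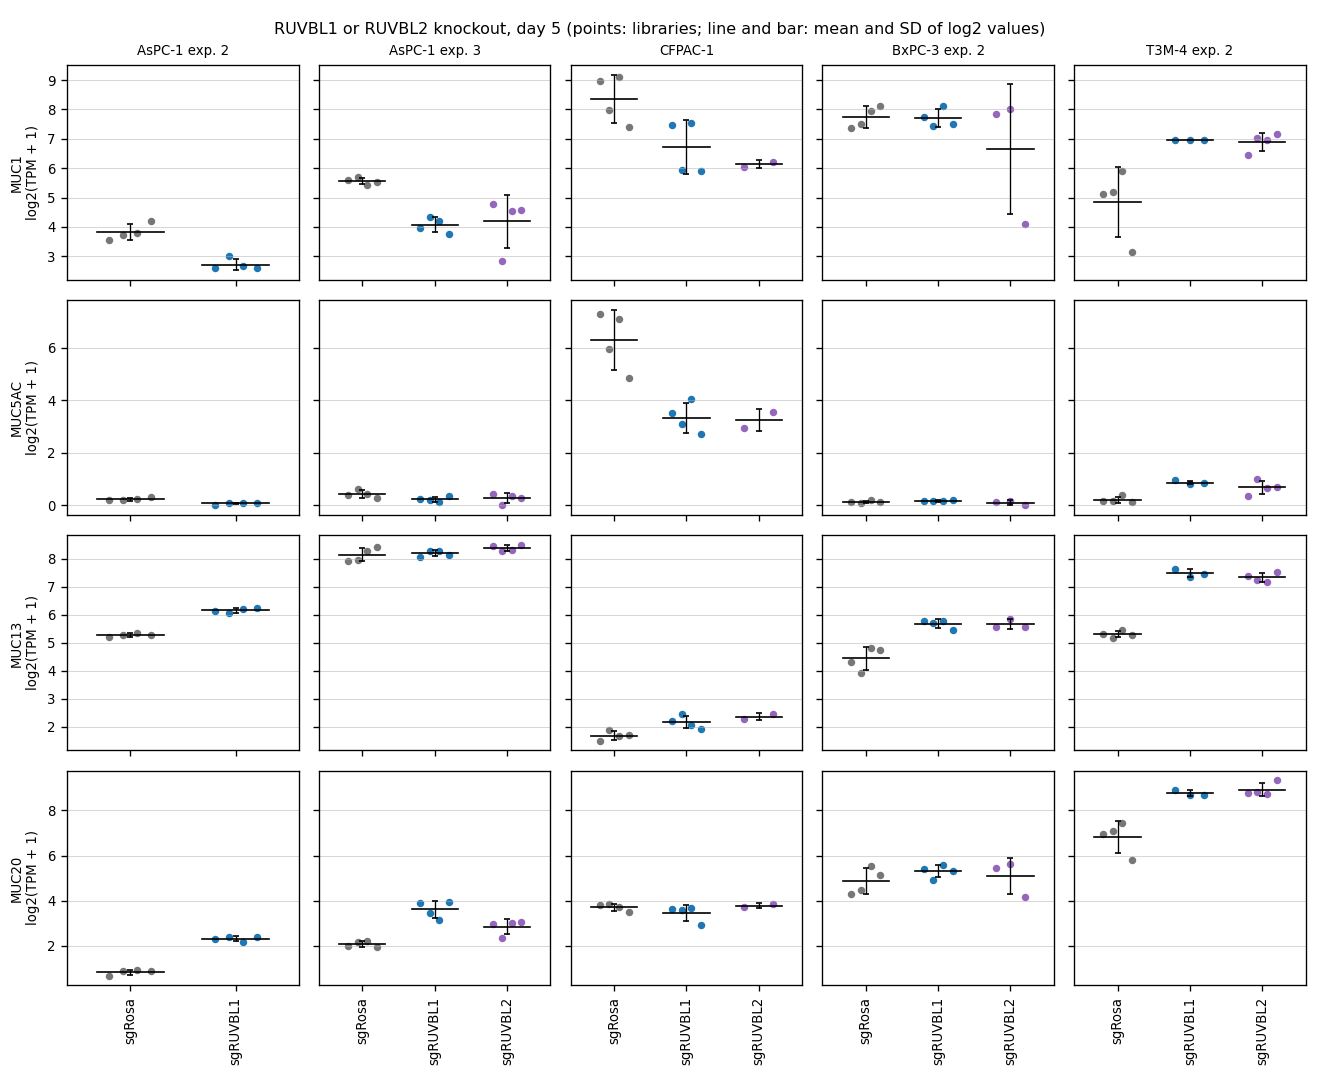
MUC1, MUC5AC, MUC13 and MUC20 in sgRosa (grey), sgRUVBL1 (blue) and sgRUVBL2 (purple) libraries of 4 lines, as log2(TPM + 1) with a point per library, a line at the mean of log2 values and bars of 1 SD. In T3M-4 MUC1, MUC13 and MUC20 lie above sgRosa with both knockouts, whereas in CFPAC-1 MUC5AC lies below, with differences of -2.96 and -3.05 on the log2 scale.

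Knockouts were also set against each other within an experiment. Over 18 such comparisons 22 of 116 mucin tests were higher and 27 lower, with 13.4% and 14.0% of all gene tests called higher and lower. Between sgRUVBL2 and sgRUVBL1 no mucin was called in AsPC-1, BxPC-3, CFPAC-1 or T3M-4, where few genes of any kind were. All genes called higher and lower there were 2.18% and 1.53% in AsPC-1 and 0.0162% and 0.0162% in BxPC-3. In CFPAC-1 they were 0.0157% and 0.00784%, and in T3M-4 0.00755% and 0.0151%. Between sgRUVBL1 and sgKLF5 the mucins called were 1 of 6 in CFPAC-1, 3 of 6 in AsPC-1, 5 of 6 in BxPC-3 and 6 of 8 in T3M-4. Many genes of any kind were called there too. All genes called higher and lower with sgRUVBL1 were 10.3% and 20.7% in CFPAC-1 and 39.1% and 19.4% in AsPC-1. In BxPC-3 they were 18.8% and 25.2%, and in T3M-4 30.5% and 15.3%. In CFPAC-1 only MUC13 was called, higher by 0.67 with sgRUVBL1. In AsPC-1 the differences were -1.53 for MUC13, 2.21 for MUC17 and 1.61 for MUC20. In BxPC-3 MUC1, MUC2, MUC4, MUC13 and MUC20 were higher with sgRUVBL1, by 1.75, 0.89, 1.59, 0.73 and 1.18. In T3M-4 MUC1, MUC2, MUC4, MUC5B, MUC13 and MUC20 were higher with sgRUVBL1, of which MUC2 differed most at 3.15.

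CDK1, the mitotic kinase, and RPA3, a subunit of the single-stranded DNA binding complex of replication, are needed by dividing cells in general, and their knockouts stood beside the others. Of 64 mucin tests in 10 comparisons 17 were higher and 0 lower, with 6.46% and 3.37% of all gene tests called in those directions. MUC13 was higher in 5 of 10 tests and MUC20 in 3 of 10. In T3M-4, second experiment, sgRpa3 gave 7 of 8 mucins higher, where 18.4% of all genes were called higher. In the third AsPC-1 experiment MUC13 was 491 and 544 TPM with sgCDK1 (0.88 ± 0.11, adjusted p = 3.3e-05), above its controls. In T3M-4, second experiment, MUC1 was 94.8 and 101 TPM with sgRpa3 (1.79, adjusted p = 0.0096), MUC5B was 2.37 and 3.35 TPM (1.70, adjusted p = 2.8e-05) and MUC16 was 62.6 and 69.1 TPM (1.76). These libraries of MUC1 and MUC16 lay above all sgRosa libraries of that experiment. Without the sgRosa library that stood apart the differences were 1.22 for MUC1 and 1.19 for MUC16 (adjusted p = 0.0004804 and 0.003398), and sgCDK1 then gave calls for MUC1 (0.77, adjusted p = 0.01864) and MUC4 (0.70, adjusted p = 0.0314) and lost that of MUC5B (0.54, adjusted p = 0.08343). MUC13 in the same experiment was 67.3 and 70.2 TPM with sgCDK1 (0.83, adjusted p = 0.00018). Without the libraries that stood apart in other groups of their fits, calls were also made for MUC1 and MUC4 with sgRpa3 in BxPC-3 (1.16 and 1.07, adjusted p = 0.0007916 and 0.001862), MUC13 with sgCDK1 in BxPC-3 (0.61, adjusted p = 0.03849) and MUC5B with sgCDK1 in AsPC-1 (0.58, adjusted p = 0.04137).

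In CFPAC-1 the libraries labelled sgRpa3 held MUC16 at 25.2 and 29.6 TPM (1.31, adjusted p = 0.0024), MUC13 at 6.11 and 6.21 TPM (1.16, adjusted p = 0.001) and MUC20 at 31.1 and 35.2 TPM (1.38, adjusted p = 0.0004), all above the sgRosa libraries. Those labelled sgCDK1 gave 0 genes called of 12748 by limma, with 1477 genes at an unadjusted p under 0.05. MUC1 in CFPAC-1 was 677 and 814 TPM in the libraries labelled sgRpa3 and 623 and 627 TPM in those labelled sgCDK1, above the highest control at 551 TPM, without passing the test. Against the libraries labelled sgRpa3, all 6 tested mucins were lower with sgKLF5, by -1.35 to -3.28, and with sgRUVBL1, by -0.68 to -3.69. Of all genes, 29.9% were called lower in the comparison with sgKLF5 and 41.2% in that with sgRUVBL1. Elsewhere, sgRUVBL1 against sgRpa3 gave 2 higher and 0 lower mucin calls of 8 in T3M-4 (23.9% and 14.4% of genes). BxPC-3 gave 1 and 0 of 6 (12.7% and 10.3%), and AsPC-1 gave 1 and 3 of 6 (23.5% and 14.1%). With sgKLF5 against sgRpa3, AsPC-1 gave 1 and 3 of 6 (11.5% and 14.9%). T3M-4 gave 0 and 0 of 6 (1.74% and 1.92%), then 1 and 3 of 8 (12.3% and 14%). BxPC-3 gave 2 and 2 of 6 (11.4% and 7.07%), then 0 and 3 of 6 (28.3% and 22.5%). In the first T3M-4 experiment sgRpa3 gave 0 genes called of 12636, with 189 at an unadjusted p under 0.05.

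SERPINB5, which encodes a serpin, and CHD4, a chromatin remodelling ATPase, were knocked out in AsPC-1 only. Of 11 mucin tests 0 were higher and 4 lower, with 11.8% and 13.5% of all gene tests called higher and lower. All 4 came from sgCHD4, where 50.0% of genes were called. MUC17 fell from 29.8, 35.7, 37.4 and 39.5 TPM to 8.34, 17.4, 18.9 and 21.7 TPM (-1.13 ± 0.22, adjusted p = 0.0013), and MUC13 from 76.8, 77.7, 82.0 and 82.7 TPM to 51.7, 55.7, 56.2 and 58.6 TPM (-0.52 ± 0.05, adjusted p = 9.3e-06). MUC3A fell by 0.60 on the log2 scale (adjusted p = 0.0003) and MUC5B by 0.66 (adjusted p = 0.00045), and none of the 4 genes had overlapping groups. MUC1 gave 0.26 (adjusted p = 0.062). With sgSERPINB5 no mucin was called, where 0.0343% of genes were. These were 4 genes of 11645, with 802 at an unadjusted p under 0.05. MUC1 was 8.64, 9.79, 12 and 13.8 TPM with sgSERPINB5 beside 10.8, 12.2, 13 and 17.2 TPM with sgRosa.

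CB-6644 was compared with DMSO in AsPC-1 and T3M-4 carrying EV or a RUVBL1 A62T or RUVBL2 dF109 cDNA, the latter to ask whether a response goes through RUVBL1/RUVBL2. DMSO had 1 library per cDNA, so each CB-6644 group of 3 libraries was tested against the 3 DMSO libraries together, and where the DMSO library of the same cDNA gives another result it is stated. Tests against that 1 library take their spread from the other groups and assume that it varies like them. RUVBL1 reached 1785 to 2964 TPM in A62T libraries and RUVBL2 1055 to 2178 TPM in dF109 libraries. In EV cells 2 of 11 mucin tests were higher and 3 lower, with 32.5% and 16.2% of all gene tests called. In A62T and dF109 cells 6 of 22 were higher and 0 lower, with 30.4% and 3.53% called. These counts moved with the setting. Higher calls in the variants were 3 against the DMSO library of the same cDNA and 13 without the A62T DMSO library of T3M-4, and lower calls in EV cells were 0 with only the compared groups, 6 without the EV DMSO library of T3M-4 and 8 with another scaling. Variant against EV, both in CB-6644, gave 14 higher and 3 lower of 22, with 28.1% and 17.7% called.

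In AsPC-1 MUC20 carried the clearest response. Its DMSO libraries held 3.26 TPM in EV, 3.2 TPM in A62T and 2.45 TPM in dF109 cells. With CB-6644 it was 14, 14.9 and 18.9 TPM in EV cells (2.09 ± 0.14, adjusted p = 2.8e-07), 4.96, 5.23 and 6.70 TPM in A62T cells (0.74 ± 0.14, adjusted p = 0.013) and 5.26, 6.61 and 7.34 TPM in dF109 cells (0.89 ± 0.14, adjusted p = 0.0018). In the 3 comparisons 64.4%, 12.7% and 33.4% of genes were called. All treated libraries lay above all DMSO libraries, and EV cells lay above both variants, with -1.35 ± 0.14 for A62T against EV (adjusted p = 1.4e-05; 51.1% of genes called) and -1.19 ± 0.14 for dF109 against EV (adjusted p = 4.5e-05; 47.2% of genes called). Against its own single DMSO library the A62T rise was 0.65 (adjusted p = 0.192).

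MUC17 in EV cells of AsPC-1 was 146, 150.0 and 158 TPM with CB-6644 beside 117.7, 118.6 and 78.5 TPM in the DMSO libraries of EV, A62T and dF109 (0.55 ± 0.12, adjusted p = 0.0018). MUC1 in EV cells was at 12.6, 13.7 and 18.9 TPM beside 39.7 TPM in EV DMSO and 17.6 and 15.5 TPM in the variants' DMSO (-0.55 ± 0.33, adjusted p = 0.16), so that 2 of the 3 treated libraries lay below all DMSO libraries. Against EV DMSO alone the MUC1 difference was -1.36 (adjusted p = 0.0112). In the variants MUC1 spread from 11.5 to 25.2 TPM with CB-6644 and was not called. MUC13 was called in dF109 cells only, at 276, 289 and 307 TPM (0.35 ± 0.09, adjusted p = 0.012), and against the dF109 DMSO library at 269 TPM it gave 0.11 (adjusted p = 0.196).

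In T3M-4 the 3 cell pools differed before treatment. DMSO libraries of EV, A62T and dF109 held MUC1 at 10.2, 33.1 and 21.5 TPM, MUC13 at 6.23, 45.3 and 34.9 TPM and MUC20 at 17.5, 155 and 69.2 TPM. EV was the lowest of the 3 for each, and KRT5, a basal keratin, was at 1628 to 1846 TPM in EV libraries and 694.5 to 1165 TPM in those of the variants. The 6 tested mucins were higher in A62T than in EV with CB-6644, by 1.78 to 3.06 (50.6% of genes called), and in dF109 than in EV by 1.19 to 2.26 (34.6% of genes called). Without the EV library that stood apart MUC20 was higher in dF109 by 1.86 and no longer called (adjusted p = 0.05804). The order of EV below both variants was thus already there with DMSO, and response and pool cannot be told apart in these values.

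Against the pooled DMSO libraries, EV cells of T3M-4 were lower in MUC1 (-1.34 ± 0.35, adjusted p = 0.012), MUC2 (-0.90 ± 0.21, adjusted p = 0.0078) and MUC16 (-1.46 ± 0.42, adjusted p = 0.02), where 34.3% of genes were called. Within EV cells, MUC1 was 4.24, 8.26 and 9.89 TPM with CB-6644 beside 10.2 TPM with DMSO (-0.47, adjusted p = 0.29), and MUC2 and MUC16 gave -0.41 (adjusted p = 0.102) and -0.71 (adjusted p = 0.328). These calls were thus lost against the EV DMSO library, and without the treated library that stood apart MUC16 gave -0.95 against the pooled DMSO (adjusted p = 0.0503). MUC13 turned from -0.85 (adjusted p = 0.21) against the pooled DMSO to 0.82 (adjusted p = 0.00039) against the EV DMSO library, as it was 11.4, 11.5 and 12.4 TPM beside 6.23 TPM.

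In A62T cells of T3M-4, MUC2 (0.89), MUC4 (1.34) and MUC20 (1.70) were called against pooled DMSO, where 50.0% of genes were called, and none against the A62T DMSO library (0.35, 0.25 and 0.29). MUC1 (0.77, adjusted p = 0.0472) and MUC16 (0.91, adjusted p = 0.0272) passed against pooled DMSO once the EV library that stood apart was left out. MUC20 there was 178, 192 and 202 TPM beside 155 TPM. In dF109 cells, where 37.6% of genes were called, no mucin was called against pooled DMSO, and MUC13 was called against the dF109 DMSO library, at 48.6, 50.2 and 52.4 TPM beside 34.9 TPM (0.52, adjusted p = 0.00391).

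**Figure D4:**
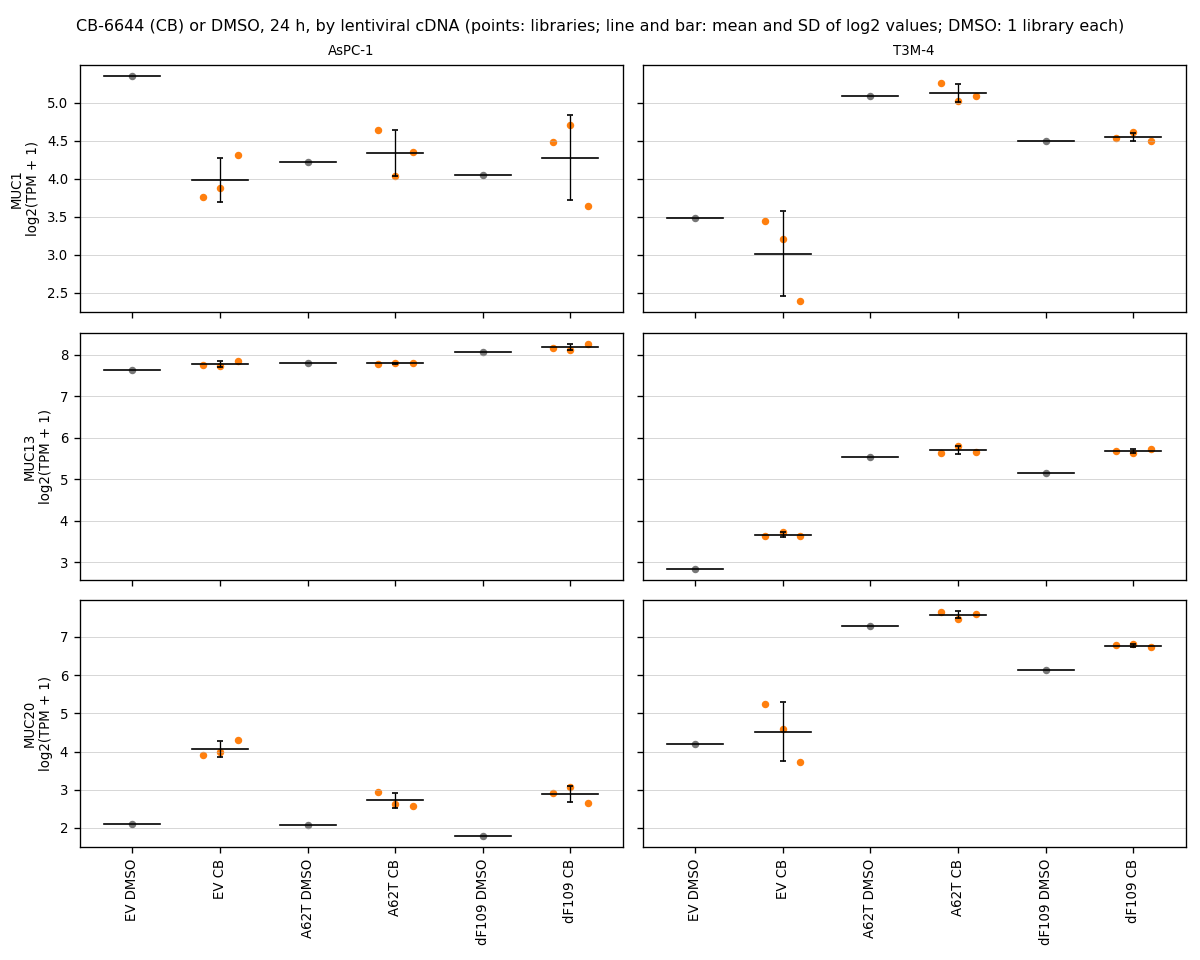
MUC1, MUC13 and MUC20 in DMSO (grey, 1 library per cDNA) and CB-6644 (orange, 3 libraries per cDNA) at 24 h in AsPC-1 and T3M-4, as log2(TPM + 1) with a line at the mean of log2 values and bars of 1 SD. MUC20 in AsPC-1 rises furthest in EV cells, to 14, 14.9 and 18.9 TPM, and in T3M-4 the EV libraries lie below those of both variants with DMSO as well as with CB-6644.

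In the non-pancreatic lines CB-6644 and DMSO had 4 libraries each. Of 13 mucin tests 8 were higher and 2 lower, with 50.8% and 26.3% of all gene tests called, so that most genes of any kind were called in these lines. MUC20 rose in all 3 lines in which it was tested. In T84 it went from 79.4, 84.8, 85.2 and 92.1 TPM to 115, 121, 121 and 126 TPM (0.50 ± 0.05, adjusted p = 2.6e-07; 71.4% of genes called). In A375 it went from 0.406, 0.440, 0.517 and 0.995 TPM to 6.69, 8.35, 8.39 and 9.20 TPM (2.53 ± 0.12, adjusted p = 5.9e-09; 81.1% of genes called). H1048 went from 8.80, 9.66, 10.2 and 10.3 TPM to 24.2, 24.6, 24.9 and 25.8 TPM (1.27 ± 0.06, adjusted p = 1.7e-09; 77.9% of genes called). No treated library overlapped a control.

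MUC1 differed in direction between these lines. It fell in T84 from 33.6, 36.9, 37.7 and 39.5 TPM to 18.3, 18.8, 19.7 and 21.5 TPM (-0.88 ± 0.07, adjusted p = 9.9e-09). It rose in A375 from 4.22, 4.41, 4.67 and 5.62 TPM to 8.33, 8.85, 9.45 and 9.73 TPM (0.82 ± 0.08, adjusted p = 2.1e-06) and in RH30 from 0.947, 1.06, 1.09 and 1.37 TPM to 1.91, 2.38, 2.67 and 2.67 TPM (0.68 ± 0.10, adjusted p = 5.9e-05; 77.7% of genes called). In H1048, at 4.85 to 8.22 TPM and 5.67 to 8.81 TPM, the difference was 0.00 (adjusted p = 0.99).

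MUC13 rose in T84 from 379, 428, 434 and 464 TPM to 644, 645, 660.3 and 660.5 TPM (0.62 ± 0.05, adjusted p = 2.4e-08) and in A375 from 0.382, 0.470, 0.477 and 0.536 TPM to 2.93, 3.13, 3.22 and 3.63 TPM (1.53 ± 0.08, adjusted p = 1.3e-08). In H1048 it gave 0.13 (adjusted p = 0.27). MUC3A fell in T84 from 8.29, 8.85, 9.06 and 9.18 TPM to 3.71, 3.88, 4.30 and 4.31 TPM (-0.96 ± 0.08, adjusted p = 2.7e-08), and MUC5B rose in A375 by 0.30 ± 0.06 (adjusted p = 0.00047). The non-pancreatic lines share a table, and the difference of responses was tested between T84 and H1048 only. It was -0.88 for MUC1 (adjusted p = 0.0003711) and -0.83 for MUC3A (adjusted p = 1.693e-06). For MUC13 it was 0.49 (adjusted p = 0.003254) and for MUC20 -0.77 (adjusted p = 1.649e-07), where 47.8% of genes were called.

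**Figure D5:**
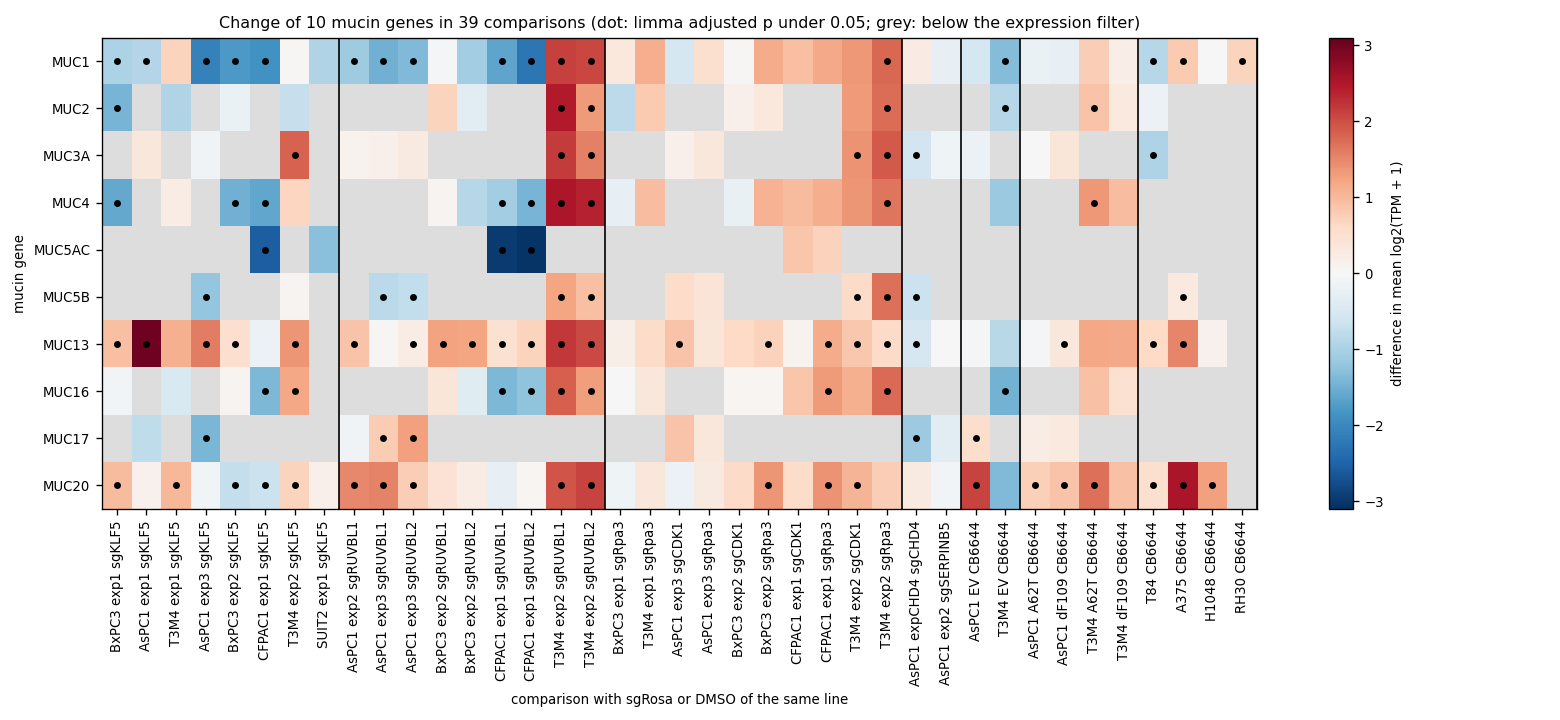
Difference in mean log2(TPM + 1) from sgRosa or DMSO for the 10 mucins (rows) in 39 comparisons (columns), red for higher and blue for lower, with a dot where limma's adjusted p was under 0.05 and grey where the gene was below the expression filter. MUC13 has dots in 5 of 7 KLF5 and 8 of 9 RUVBL1 or RUVBL2 comparisons, all of them red, while MUC1 has 5 blue dots among the KLF5 comparisons and both colours among the RUVBL1 or RUVBL2 comparisons.

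Over all these comparisons the median of all genes moved by more than 0.1 on the log2 scale in 29 of 61, within -0.29 to 0.33. Genes around the mucins were followed through lists of other mucins (11 genes), enzymes of mucin-type O-glycosylation (23), folding, packing and secreted partners (15), shedding and binding partners (11) and regulators of mucin genes (18). Other mucins were higher in 5 of 21 tests after KLF5 knockout, 17 of 24 after RUVBL1 or RUVBL2 knockout and 9 of 10 with CB-6644 in non-pancreatic lines, and lower in 0 of each, beside 11.8%, 23.0% and 50.8% of all gene tests called higher. These tests repeat a few genes. Of the 11, only CD164 averaged at least 1 TPM in the controls of every line, from 81.3 TPM in A375 to 259.7 TPM in T84. The 5 lists gave medians of 0.37 to 0.76 in T3M-4 with sgRUVBL1, where the median of all genes tested was 0.25 and that of the 8 mucins 2.15. OVGP1, an oviductal mucin, was among the other mucins, with 2.12 in T84, 2.19 in A375 and 1.41 in EV cells of AsPC-1 with CB-6644. It gave 0.94 in T3M-4 and 0.75 in CFPAC-1 with sgRUVBL1. MUC21, a membrane mucin, rose by 1.78 in T3M-4 with sgRUVBL1.

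Of the O-glycosylation enzymes, 38 of 159 tests were higher and 21 lower after KLF5 knockout and 35 of 178 higher and 25 lower after RUVBL1 or RUVBL2 knockout. These are 23.9% and 13.2%, then 19.7% and 14.0%, beside 11.8% and 8.81%, then 23.0% and 15.7%, of all gene tests. B3GNT6, which builds the core 3 sugar of colonic mucins, rose by 2.52 in T3M-4 with sgRUVBL1, and GALNT5, which adds the first sugar, rose by 1.82 there. With sgKLF5, B3GNT3 fell by 1.07 and GALNT5 by 0.90 on the log2 scale in CFPAC-1. In the third AsPC-1 experiment GALNT7 rose by 0.99 and FUT2, which makes the H antigen, fell by 0.83.

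Folding, packing and secreted partners were higher in 23 and lower in 17 of 82 tests after KLF5 knockout and higher in 21 and lower in 14 of 95 after RUVBL1 or RUVBL2 knockout (28.0% and 20.7%, then 22.1% and 14.7%, against the same shares of all gene tests). AGR2, a disulfide isomerase needed to make MUC2, rose by 4.12 ± 0.29 in the third AsPC-1 experiment with sgKLF5, while the trefoil factor TFF2 fell by 2.24 ± 0.19. In CFPAC-1 ERN2, the stress sensor of mucous cells, fell by 1.57 and TFF1 by 1.17. Beside the fall of MUC17 and MUC13 after CHD4 knockout, FCGBP, a protein of the mucus gel, fell by 1.25.

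Shedding and binding partners were higher in 13 and lower in 27 of 88 tests after KLF5 knockout and higher in 42 and lower in 13 of 98 after RUVBL1 or RUVBL2 knockout. Their shares were 14.8% and 30.7%, then 42.9% and 13.3%, where all gene tests gave 11.8% and 8.81%, then 23.0% and 15.7%. MSLN, the ligand of MUC16, fell with sgKLF5 by 1.12 ± 0.10 in the third AsPC-1 experiment and by 1.32 in CFPAC-1. EGFR, which MUC1 binds, fell in CFPAC-1 by 0.82 with sgKLF5 and by 1.21 with sgRUVBL1, and ERBB3 rose in T3M-4 with sgRUVBL1 by 1.3.

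Regulators of mucin genes were higher in 22 and lower in 14 of 99 tests after KLF5 knockout and higher in 19 and lower in 31 of 110 after RUVBL1 or RUVBL2 knockout, or 22.2% and 14.1%, then 17.3% and 28.2%, beside those same shares of all gene tests. With sgKLF5 in the third AsPC-1 experiment the intestinal and gastric factors went both ways, with FOXA1 at 1.83, FOXA3 at 1.63, HNF4A at -1.49 and ELF3 at -1.37. In CFPAC-1 SPDEF, the factor of goblet cells, fell by 1.06 with sgKLF5. In T3M-4 with sgRUVBL1, ELF3 and FOXA1 rose by 1.42 and 1.16 and SOX2 and FOXA2 fell by 1.25 and 1.06. With CB-6644, ATOH1 and CDX1 fell by 1.32 and 1.11 in T84, and EHF by 1.49 in EV cells of AsPC-1. In CDK1 and RPA3 knockouts the higher and lower calls were 22 and 1 of 123 for regulators, 24 and 2 of 106 for folding, packing and secreted partners, 21 and 2 of 110 for shedding and binding partners, 22 and 7 of 203 for O-glycosylation enzymes and 4 and 0 of 29 for other mucins, beside 6.46% and 3.37% of all gene tests.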

How the data were processed

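Poly-A RNA was sequenced by the study as single-end reads of TruSeq v2 libraries. The authors estimated transcript abundance against hg38 by pseudo-alignment (kallisto), dropped transcripts of low abundance, and deposited TPM per gene, summed with tximport, in 8 tables with 1 column per library. The study's own comparisons used a count model. Counts and depth were not used here, and precision rests on the number and spread of libraries. limma 3.58.1 in R 4.3.3 (empirical Bayes with a trend) was fitted to log2(TPM + 1), with all libraries of a line and experiment in a fit and genes averaging at least 1 TPM. A check on simulated data planted changes of 1 (log2) in 200 genes, in 1 comparison per fit. It recovered 0% of them in T3M-4, first experiment, 36% in SUIT-2 and 68.5% to 97.5% in the other fits. The real fit of the first T3M-4 experiment called 723 genes, MUC20 at 1.03 among them. The 0% is thus not the share of real changes missed there. Missing calls in T3M-4, first experiment, and in SUIT-2 still say little. Groups came from the labels, and no 2 libraries held identical values. All 10 mucins were named. Of each further list, at most the 2 genes that rose most and the 2 that fell most past the threshold in a comparison were named. Targets of the knockouts were named as checks, and genes nearest to a mucin by correlation over lines. The members and lists were chosen with earlier results of these data known. Promoters came from RefSeq (GRCh38.p14), which gave 7 of the 10 mucins; MUC5AC, MUC5B and MUC20 were not searched. Alternatives changed the pseudocount (to 0.1), the filter (none, or a mean of 5 TPM), the scaling, the groups in the fit (only those compared), the DMSO library (that of the same cDNA) or added a replicate block, and each library was left out in turn. Leaving out the libraries that stood apart was chosen after seeing the data.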

Additional observations from a re-analysis of the deposited data

Results flagged for a closer look

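In groups of 4 to 10 libraries, 13 of 144 mucin values tested had 1 library far from the rest, where chance gives about 1 in 20 groups. Replicate 2 of AsPC-1 sgRUVBL2 was lowest for MUC1 (6.14 TPM, others from 22.4 TPM), MUC3A (3.88 TPM, others from 6.71 TPM) and MUC20 (4.12 TPM, others from 6.91 TPM). Replicate 2 of SUIT-2 sgKLF5 was lowest for MUC1 (1.66 TPM, others from 15.8 TPM) and MUC20 (2.13 TPM, others from 3.89 TPM), and replicate 1 of SUIT-2 sgRosa for MUC5AC (0.112 TPM, others from 4.02 TPM). MUC4 was lowest in replicate 2 of T3M-4 sgKLF5, first experiment (2.19 TPM, others from 5.39 TPM). MUC17 was lowest in replicate 4 of AsPC-1 sgRUVBL1 (30.4 TPM, others from 66.8 TPM). MUC20 was lowest in replicate 4 of CFPAC-1 sgRUVBL1 (6.62 TPM, others from 10.9 TPM) and highest in replicate 4 of T3M-4 sgRUVBL2 (645 TPM, others up to 448 TPM). MUC3A was highest in replicate 3 of AsPC-1 sgCHD4 (3.37 TPM, others up to 2.89 TPM) and lowest in replicate 1 of sgRosa (3.61 TPM) and of sgRUVBL1 (3.95 TPM) of the second AsPC-1 experiment.

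Effects of 1 knockout or treatment differed by a limma interaction test in 9 of 28 mucin tests. Of all genes, 4.28% (AsPC-1), 17.4% (T3M-4) and 16.7% (BxPC-3) were called for KLF5 knockout. The shares were 18.2% for RUVBL1 knockout in AsPC-1 and 47.8% for CB-6644 in T84 against H1048. For KLF5 knockout the mucins called were MUC13 (1.43) and MUC5B (1.01) between the first and the third AsPC-1 experiment and MUC2 (-1.24) and MUC20 (1.72) between the BxPC-3 experiments. For RUVBL1 knockout it was MUC13 (0.83) between the second and the third AsPC-1 experiment. For CB-6644 in T84 against H1048 they were MUC1 (-0.88), MUC3A (-0.83), MUC13 (0.49) and MUC20 (-0.77).

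Some called effects went opposite ways in different lines, in every library, and these differences were not tested. The pancreatic lines come from tables made separately, whereas A375, RH30 and T84 share a table. With CB-6644 MUC1 was higher in A375 (0.82) and RH30 and lower in T84 and in EV cells of T3M-4 (-1.34), where against the EV DMSO library it was -0.47 and not called (adjusted p = 0.29). With sgKLF5 MUC20 was higher in T3M-4, first experiment (1.03), and BxPC-3, first experiment, and lower in CFPAC-1 (-0.66). With sgRUVBL1 the values in T3M-4 and the opposite line were 2.13 and -1.49 (AsPC-1) for MUC1, 1.23 and -0.83 (AsPC-1) for MUC5B and 1.85 and -1.38 (CFPAC-1) for MUC16. With sgRUVBL2 they were 2.06 and -2.23 (CFPAC-1) for MUC1, 2.38 and -1.44 (CFPAC-1) for MUC4 and 0.92 and -0.77 (AsPC-1) for MUC5B.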

How the results depend on the processing

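Of 173 mucin calls, 169 were kept with a pseudocount of 0.1, 161 with no filter, 160 of 167 with another scaling, 145 of 168 with only the compared groups and 143 of 144 at a mean of 5 TPM, and none changed direction. Of 11 calls of CB-6644 against DMSO, 3 were kept against the DMSO library of the same cDNA, and 129 of 135 without the libraries that stood apart. Differences reversed for MUC13 in T3M-4 EV cells (0.82 against EV DMSO) and for MUC1 with sgKLF5 in T3M-4, second experiment (-0.54 without the libraries that stood apart, and -0.54 to 0.38 without 1 library, the lowest without sgRosa replicate 4). Higher calls after CHD4 or SERPINB5 knockout were 1 with no filter, and lower calls 2 at a mean of 5 TPM. Lower calls with CB-6644 in EV cells were 8 with another scaling, 0 with only the compared groups and 1 against the same cDNA's DMSO. Higher calls in variant cells were 3 in each of these 3. After CDK1 or RPA3 knockout 1 lower call came with only the compared groups, and in non-pancreatic lines 5 higher calls remained at a mean of 5 TPM. The cause was not tested. Leaving out 1 library gave higher and lower calls of 8 to 11 and 12 to 17 (KLF5), 25 to 28 and 9 to 15 (RUVBL1 or RUVBL2), 12 to 22 and 0 (CDK1 or RPA3), 0 to 1 and 3 to 4 (SERPINB5 or CHD4), 2 and 2 to 6 (CB-6644, EV; 6 without T3M-4 EV DMSO), 4 to 13 and 0 (CB-6644, variants; 13 without T3M-4 A62T DMSO), 13 to 14 and 2 to 3 (variant against EV), 20 to 24 and 24 to 28 (knockout against knockout), and 8 and 2 (non-pancreatic lines). MUC20 in BxPC-3, second experiment, with sgKLF5 lost its call without any of 6 libraries.

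Replicate numbers gave little sign of pairing: of 30 comparisons with 3 or more pairs, 1 had every pair's correlation over 0.1. Comparisons with fewer pairs could not decide this. Over all 55 comparisons correlations ran from -0.459 to 0.462. With a replicate block the higher and lower calls were 10 and 15 (KLF5), 27 and 13 (RUVBL1 or RUVBL2), 19 and 0 (CDK1 or RPA3), 0 and 4 (SERPINB5 or CHD4), 14 and 4 (variant against EV), 23 and 29 (knockout against knockout) and 8 and 2 (non-pancreatic lines), with 10 interactions called. No paired analysis was possible because DMSO libraries carry no number for CB-6644 in AsPC-1 and T3M-4. Depth is unknown, so low values such as MUC2, MUC3A and MUC5B have a precision that cannot be stated.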

Other observations

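Across the 9 lines, the genes whose control level was most like a mucin's were found by Pearson's r of mean log2 values over 9 lines, among 12223 genes, as a description with no test. For MUC1 they were TNFRSF21 (0.94), C15orf39 (0.93) and TMEM92 (0.93). GBP6 (0.98) and PTGS2 (0.98) were nearest to MUC4, AGTR1 (0.99) and SLC34A2 (0.99) to MUC5AC, and GDPD3 (0.98) and C4BPB (0.94) to MUC13. SOX21 (0.98) was nearest to MUC16, PRODH2 (0.9996) to MUC17, and OVOL1 (0.96), ABCF3 (0.93) and GRHL3 (0.92) to MUC20. Each point is a line, whose libraries share tables, and MUC5AC, MUC17 and MUC4 were highest in 1 line by a wide margin.

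In the first AsPC-1 experiment 1 of 6 sgKLF5 libraries held KRT5 at 60.5 TPM, and the same library held MUC5AC at 3.096 TPM, where the other 5 lay between 0.051 and 0.113 TPM.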
